A study of Homo sapiens with 2 samples.

Results

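The miR-193/miR-365 clusters comprise 6 mature miRNA names, taken by name from the 2588 listed in each library: hsa-miR-193b-3p, hsa-miR-193b-5p, hsa-miR-193a-3p, hsa-miR-193a-5p, hsa-miR-365a-3p and hsa-miR-365b-3p (the species prefix is left out below). Because miR-365a-3p and miR-365b-3p have the same sequence and equal counts, they were counted once, which leaves 5 distinct sequences. The data are miRNA sequencing of material held on amylose resin from lysate of parental MDA231 cells, a triple-negative breast cancer line. In the bait library the resin carried the long non-coding RNA MACC1-AS1 fused to MS2 hairpins, made in vitro and tethered through MS2 coat protein joined to maltose-binding protein. In the no-bait library the RNA substrate is labelled as none. The design asks which miRNAs bind the tagged RNA, and a control of unrelated RNA or of MS2 hairpins alone was not analysed here, so MACC1-AS1 and the presence of any RNA on the resin cannot be told apart.

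Each group held 1 library, with 1047269 miRNA counts with bait and 269716 without, a 3.88-fold difference in depth. No value below therefore has a replicate check, no p-value was computed, and 95% intervals cover counting error only. Values are in RPM, counts scaled to a common library total, that is, shares of a library and not amounts recovered. Of the marker miRNAs, the 5 of basal and mesenchymal breast lines held 47.9% of counts with bait and 59.5% without. Most of these were miR-100-5p (310370 counts with bait, 122128 without) and miR-21-5p (174986 with bait, 26251 without). Of the 4 epithelial markers, miR-141-3p, miR-205-5p and miR-375 had 0 counts in both libraries, and the remaining one, miR-200c-3p, had 20 counts with bait and 1 without. Epithelial miRNAs outside this list were seen too, with 144 counts of miR-200b-3p with bait and 28 without, and 18 counts of miR-200a-3p with bait and 1 without. No blood, liver or muscle marker had more than 17 counts with bait or 10 without. The neural marker miR-9-5p had 195 counts with bait and 22 without.

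miRNAs are cut from hairpin precursors. The duplex has a 5p arm and a 3p arm, and usually the arm that is loaded into an Argonaute protein, the guide, accumulates while the other, the passenger, is degraded. Bases 2 to 8 of the guide, the seed, lead target pairing. miR-193 and miR-365 hairpins lie in paralogous pairs on a pair of chromosomes, and the 3p arms of miR-193b and miR-365 are known as the usual guides. In cancer cells miR-193b-3p is known to repress urokinase (PLAU), cyclin D1 and the oestrogen receptor, and miR-193a-3p the survival factor MCL1. In mouse preadipocytes the cluster of miR-193b and miR-365a is known for promoting brown fat differentiation.

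The mature sequences show which members can share reads or targets. They are from RefSeq (GRCh38.p14), 5′ to 3′, with the seed in capitals. All 6 names matched, as did the miR-365 5p arms, which are not members but are needed for the comparison of arms.
miR-193b-3p: aACUGGCCcucaaagucccgcu
miR-193a-3p: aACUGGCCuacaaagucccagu
miR-365a-3p and miR-365b-3p: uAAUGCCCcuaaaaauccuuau
miR-193b-5p: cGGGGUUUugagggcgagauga
miR-193a-5p: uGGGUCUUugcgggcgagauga
miR-365a-5p: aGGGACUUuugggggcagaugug
miR-365b-5p: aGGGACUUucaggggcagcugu

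miR-193b-3p and miR-193a-3p share the seed ACUGGCC and 18 of 22 bases. Counted from the 5′ end, with miR-193b-3p first, they differ by C9U, U10A, G20A and C21G, all outside the seed. The 5p arms of miR-193b and miR-193a also share 18 of 22 bases (C1U, G5U, U6C and A11C, with miR-193b-5p first), and 2 of these changes lie in the seed. Among the 2281 listed names with a RefSeq sequence, ACUGGCC was found in 2 names and AAUGCCC in 2 names, in each case members of the clusters. The sources used here do not say how the authors assigned reads that match more than 1 name. The equal counts of miR-365a-3p and miR-365b-3p cannot be assigned to either locus.

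On chromosome 16, MIR193B (14303967 to 14304049, plus strand) and MIR365A (14309285 to 14309371, plus strand) lie 5235 bases apart in introns of the long non-coding gene MIR193BHG (GENCODE version 29, GRCh38). On chromosome 17, MIR193A (31559996 to 31560083, plus strand) lies inside no other annotated gene. MIR365B (31575411 to 31575521, plus strand) lies 15327 bases downstream of it, overlapping an exon of the long non-coding RNA AC003101.1. The hairpin of MIR193B is shown because it holds miR-193b-3p, the most abundant member with bait. Its 5p arm and then its 3p arm are in capitals.
MIR193B: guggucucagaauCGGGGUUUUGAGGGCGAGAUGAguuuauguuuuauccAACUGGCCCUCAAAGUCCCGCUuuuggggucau
The other miRNA annotated within 10 kb of a member hairpin, miR-4725 next to MIR365B, had 0 counts for each arm in both libraries.

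The 3p arms of miR-193b and miR-365 were seen with bait and had 0 counts without it. Reads of the 5p arms were few and, summed over the 4 hairpins, took a smaller share with bait than without. Of the 17 5p counts without bait, 11 came from the miR-365 5p arms, which are not members, and 9 of these from miR-365b-5p. For the 2 member 5p sequences alone no difference was detectable. Of the 5 sequences, 4 had at least 1 count. miR-193b-3p led with bait at 83.1 RPM (87 counts, 66.5 to 102), and its level without bait was 0 RPM (0 counts, up to 13.7 RPM). At the share seen with bait, 22.4 counts would have fallen in the no-bait library. Against a no-bait floor of 3 counts (11.1 RPM) the ratio of miR-193b-3p was 7.47, and its interval, computed from the 0 counts, reached down to 5.95.

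miR-365-3p, a miRNA known to repress interleukin-6 and the lung transcription factor NKX2-1, had 40.1 RPM with bait (42 counts, 28.9 to 54.2) and 0 RPM without (0 counts, up to 13.7 RPM). At equal share 10.8 counts would have fallen in the no-bait library. Its ratio against the same floor was 3.61, and its interval reached down to 2.81. If the authors split shared reads evenly between both names, the sum would be 84 counts and the ratio against the floor 7.21. miR-193b-3p stood above miR-365-3p with bait, since their intervals do not overlap when miR-365-3p is counted once.

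**Figure D1:**
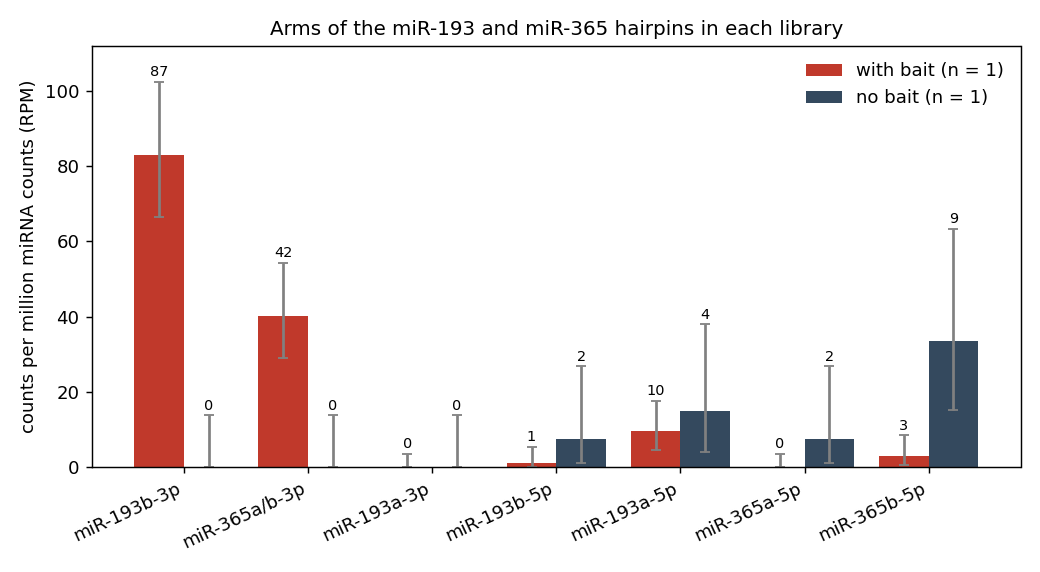
Level of each arm in RPM (y axis) in the bait library (red) and the no-bait library (dark blue), 1 library each. Error bars are exact Poisson 95% intervals, counting error only, and the number above each bar is the count. The bars of miR-193b-3p (87 counts) and miR-365a/b-3p (42 counts) stand out with bait, and the 3p arms have 0 counts without it.

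miR-193a-3p, which carries the same seed as miR-193b-3p, had 0 counts in both libraries. A count of 0 allows up to 3.52 RPM with bait and 13.7 RPM without. With bait it was thus below miR-193b-3p, whose interval began at 66.5 RPM. Of the miR-193 counts from both arms, 88 of 98 were miR-193b with bait (89.8%, exact Clopper-Pearson interval 82.0% to 94.997%) and 2 of 6 without (33.3%, 4.33% to 77.7%). The odds of miR-193b over miR-193a were 16.7 times higher with bait (exact interval 2.10 to 206). This ratio does not depend on the scaling between libraries. It sets unlike arms side by side, since 87 of the 88 miR-193b counts with bait were 3p and all miR-193a counts were 5p. In 5p counts alone, miR-193b had 1 and miR-193a 10 with bait, and 2 and 4 without. A change between loci and the gap between arms therefore cannot be told apart here.

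The 5p members were sparse. miR-193a-5p, reported to target the p53 relative TP73, had 9.55 RPM with bait (10 counts, 4.58 to 17.6) and 14.8 RPM without (4 counts, 4.04 to 37.97), a ratio of 0.644 (0.186 to 2.81). It was the one member with counts of 4 or more in both libraries, and its intervals overlap. miR-193b-5p, the arm opposite miR-193b-3p, had 0.955 RPM with bait (1 count) and 7.42 RPM without (2 counts), a ratio of 0.129 (0.0022 to 2.47). At these counts no difference was detectable for either 5p member.

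The 5p arms of miR-365 added to this. miR-365b-5p had 2.86 RPM with bait (3 counts, 0.591 to 8.37) and 33.4 RPM without (9 counts, 15.3 to 63.3), a ratio of 0.0858 (0.0149 to 0.344). miR-365a-5p had 0 counts with bait and 2 counts without. The no-bait library held 9 of its 11 miR-365 5p counts under the b name. Summed over the 4 hairpins, a sum formed with these values known, 5p arms had 13.4 RPM with bait (14 counts) and 63.0 RPM without (17 counts), a ratio of 0.212 (0.0968 to 0.457), or 4.71-fold lower with bait. All 5 member sequences together had 134 RPM with bait (140 counts) and 22.2 RPM without (6 counts), a ratio of 6.01 (2.69 to 16.7). This total sets unlike arms side by side, since 129 of the 140 were 3p and all 6 in the no-bait library were 5p. For the 2 member 5p sequences alone the ratio was 0.472, and its interval ran from 0.160 to 1.55. The value of 6.01 therefore shows no rise shared by all members. The member 3p sequences, likewise summed with these values known, had 123 RPM with bait (129 counts) and 0 without. Against the floor their ratio was 11.1, with an interval that reached down to 8.88. With 0 counts without bait and a fixed floor, summing raises this ratio by construction.

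A name was tested here if both libraries together held at least 30 counts, and called higher from a ratio of 2 upward, or lower at 0.5 or less, where the interval excluded 1. Of the 5 sequences, 2 were tested, miR-193b-3p and miR-365-3p, and both were called higher. Over all 231 tested names 39.4% were called higher and 26.8% lower. Since both members passed the filter through their bait counts alone, they had to differ, and their number is not a result about the clusters. The remaining 3 sequences had too few counts. The median log2 ratio of all tested names was 0.55. It shifted by 0.15 with TMM factors, by 0.42 with DESeq2 size factors and by -0.13 when the totals omitted the 5 top miRNAs. Higher calls made up 59.5% of all calls with scaling by totals, 64.0% with TMM factors and 72.2% with DESeq2 size factors. With totals that omitted the 5 top miRNAs they made up 56.3%. Against the floor, the ratio of miR-193b-3p ranged from 6.83 to 10.01 and that of miR-365-3p from 3.30 to 4.83 over these scalings. With 0 counts without bait, any name that passes the filter has a ratio above these medians, so this order is no result.

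**Figure D2:**
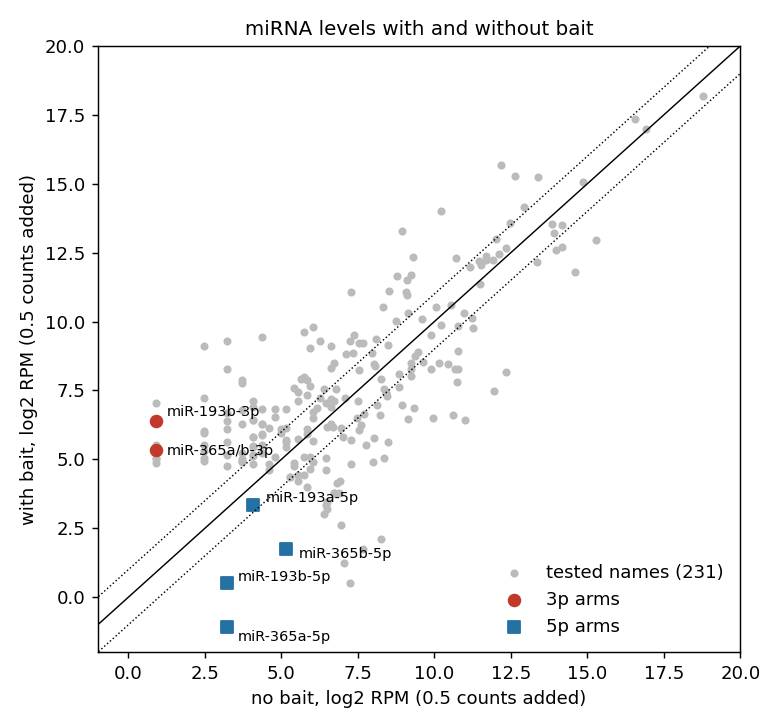
Level of each miRNA without bait (x axis) and with bait (y axis) in log2 RPM with 0.5 counts added, 1 library each. Grey points are the 231 tested names, red points the 3p arms and blue squares the 5p arms of the clusters. The solid line marks equal shares and the dotted lines 2-fold differences. miR-193b-3p and miR-365a/b-3p lie on the left edge, where names with 0 counts without bait fall, and the 5p arms lie below the line of equal shares. Among the 5p arms only miR-365b-5p had an interval of the ratio that excluded equal shares (0.0149 to 0.344). miR-193a-3p, with 0 counts in both, is not drawn.

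Within each hairpin the share of the 5p arm is free of the scaling between libraries. In miR-193b it was 1.14% with bait (1 of 88 counts, exact interval 0.0288% to 6.17%) and 100% without (2 of 2, 15.8% to 100%). In miR-365, both loci together and the 3p arm counted once, it was 6.67% with bait (3 of 45, 1.40% to 18.3%) and 100% without (11 of 11, 71.5% to 100%). The intervals do not overlap in either case. In odds of 5p over 3p, the exact interval of bait over no bait had its upper bound at 0.145 for miR-193b and at 0.0501 for miR-365. In miR-193a the 5p arm held all counts, 10 of 10 with bait (69.2% to 100%) and 4 of 4 without (39.8% to 100%). With 0 counts of its 3p arm in both libraries the odds could not be compared. It therefore gives no contrast to miR-193b and miR-365. The 100% of miR-193b without bait rests on 2 counts.

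**Figure D3:**
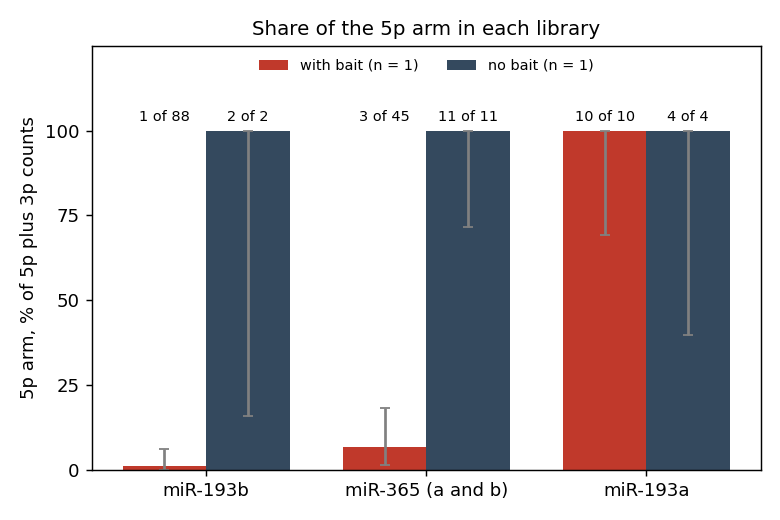
Share of the 5p arm in the summed counts of both arms (y axis, %) for miR-193b, miR-365 and miR-193a, in the bait library (red) and the no-bait library (dark blue). Error bars are exact Clopper-Pearson 95% intervals and the counts stand above the bars. The 5p share was 1.14% and 6.67% with bait in miR-193b and miR-365, against 100% without bait in each.

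Among all hairpins with both arms seen and at least 30 counts in all (109 hairpins), the 3p arm had the greater bait over no-bait ratio in 47, and the median difference between arms was -0.29 on the log2 scale. With 0.5 counts added, the 3p arm exceeded the 5p arm by 8.73 in miR-365a, 8.19 in miR-193b and 7.85 in miR-365b, which were the 3 greatest differences. The next, of miR-23a, was 6.67. The miR-365 hairpins share their 3p counts and are not separate cases. These differences depend on the counts added to zeros. The 3 hairpins reached 30 counts only through their 3p counts with bait (87 of 90 in miR-193b, 42 of 44 in miR-365a and 42 of 54 in miR-365b). With 0 counts of the 3p arm without bait, a great difference was largely fixed in advance, so these ranks are no result about the clusters. Ordered instead by the lower bound of the exact interval of the odds, an ordering added after seeing the data, miR-365b came sixth with a bound of 15.9, miR-193b eighth with 6.88 and miR-365a ninth with 5.90, behind hairpins with deeper counts such as miR-23b (35.7) and miR-23a (31.1). By that interval 17 of the 109 hairpins had a greater ratio in the 3p arm and 18 in the 5p arm.

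**Figure D4:**
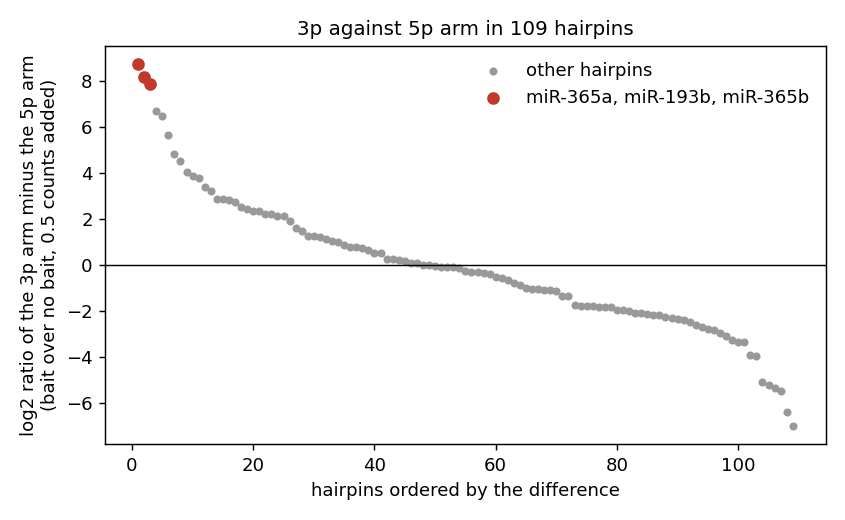
Difference between the log2 bait over no-bait ratios of the 3p and 5p arms (y axis, 0.5 counts added) in 109 hairpins, ordered from the greatest to the least (x axis). The red points, miR-365a (8.73), miR-193b (8.19) and miR-365b (7.85), lie at the upper end, and the other hairpins spread to -7.02. The place of the red points was largely fixed in advance, since their 3p arms had 0 counts without bait.

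Both arms of miR-193b have the same G+C content of 59.1%. The 5p arms of the 4 hairpins had 56.5% to 59.1%, and miR-365-3p 31.8%. Over 203 tested names with a RefSeq sequence, Spearman's rho between G+C content and the log2 ratio was -0.30, a description across names that share both libraries. By arm, rho was -0.39 over 85 3p names and -0.15 over 93 5p names. At a G+C content of 40% or less, 26 of 38 names were called higher (68.4%) and 2 lower. Between 55% and 65%, a range taken because miR-193b-3p and the 5p arms lie there, 10 of 35 were higher (28.6%) and 13 lower (37.1%). Except for rho over the 5p names, all of these values include tested members. In them miR-365a-3p and miR-365b-3p, which share a sequence, enter as separate names. The part of base composition in the ratios of the members was not tested.

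**Figure D5:**
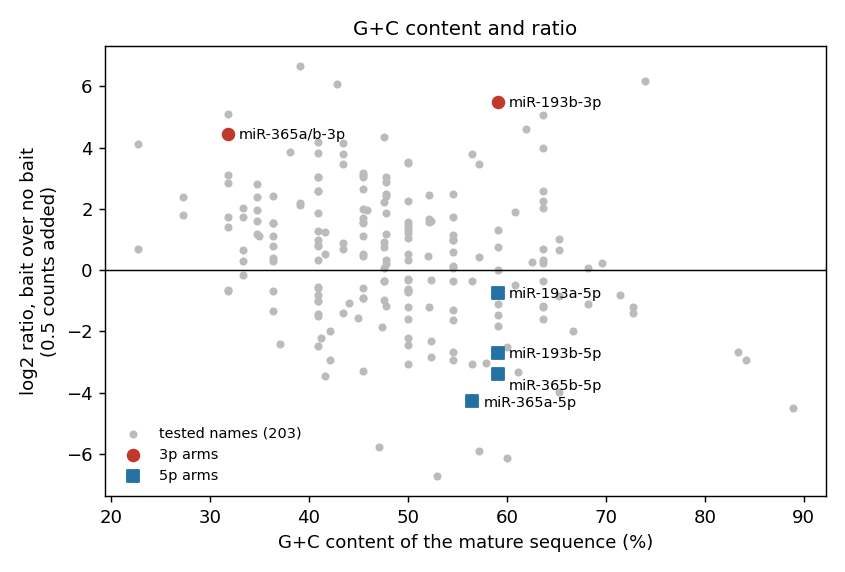
G+C content of the mature sequence (x axis, %) against the log2 ratio of bait over no bait (y axis, 0.5 counts added). Grey points are the 203 tested names with a sequence, red points the 3p arms and blue squares the 5p arms of the clusters. miR-193b-3p and miR-193b-5p share a G+C content of 59.1% and lie on opposite sides of 0, while miR-365a/b-3p lies at 31.8%. The point of miR-193b-5p rests on 1 count with bait and 2 without, too few to give a direction.

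With bait, 239 names were seen that had 0 counts without it, but only 8 of these reached 30 counts with bait. Of the 8 names 3 belong to the clusters, and miR-365a-3p and miR-365b-3p among them are the same sequence. The 8 names were picked by the same counts that describe the members, so this number is no result about the clusters. Among the 8 names miR-193b-3p had the second-highest bait count, after miR-324-3p (139 counts with bait, 0 without). By the distance between log2 RPM values in the 2 libraries (0.5 counts added), the tested names nearest to miR-193b-3p were miR-324-3p (0.67), miR-331-3p (0.88) and miR-421 (1.34). Those nearest to miR-365-3p were miR-331-3p (0.16), miR-421 (0.30) and miR-190a-5p (0.34). miR-331-3p had 47 counts with bait, miR-421 had 34 and miR-190a-5p had 33, each with 0 without bait. With 2 libraries this likeness says only that the names had similar counts.

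One annotated transcript of MACC1-AS1 (639 bases, chromosome 7, GENCODE version 29) was searched for the complement of each seed, on the transcript's own strand. GGCCAGT, which pairs with bases 2 to 8 of miR-193b-3p and miR-193a-3p, occurred 1 time, at positions 248 to 254. It is shown in capitals with its flanks, because miR-193b-3p was the most abundant member with bait.
MACC1-AS1 site: aactctccagcGGCCAGTcagaaaatgag
The same letters occur in 5.05% of the first 639 bases of 8876 other long non-coding RNA transcripts, 1 per gene. The MACC1-AS1 transcript has a G+C content of 35.2%, and these windows were not matched for it, so 5.05% is no rate for transcripts of like composition. GGGCATT (miR-365-3p, in 3.08% of these windows), AAACCCC (miR-193b-5p, 4.71%), AAGACCC (miR-193a-5p, 5.18%) and AAGTCCC (miR-365 5p arms, 3.65%) were not found. The isoform of the bait itself was not analysed here, and a match describes letters, not binding. miR-193a-3p, which shares the site, had 0 counts in both libraries.

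Related miRNAs were described by lists. Of 12 miRNAs known as suppressors of growth or invasion in breast cancer cells, 6 were tested, 3 were called higher and 0 lower, with a median log2 ratio of 1.57. Over all 231 tested names 39.4% were higher and 26.8% lower, with a median of 0.55, so a count of 3 in 6 is near the background. miR-138-5p had 896 RPM with bait and 63.0 RPM without, 14.2-fold higher (8.83 to 24.5). miR-126-3p, an endothelial miRNA, had 602 RPM with bait and 182 RPM without, 3.31-fold higher (2.47 to 4.52). miR-146a-5p, a brake on NF-kB signalling, and miR-22-3p met neither criterion, the ratio being 1.77 for miR-146a-5p and 1.39 for miR-22-3p.

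Of 11 further miRNAs known to act in brown fat differentiation, 6 were tested, 2 were called higher and 0 lower, with a median log2 ratio of 1.08, beside 39.4% higher, 26.8% lower and a median of 0.55 over all tested names. miR-30c-5p had 16305 RPM with bait and 1186 RPM without, 13.7-fold higher (12.3 to 15.4). miR-182-5p, miR-27b-3p and miR-378a-3p met neither criterion, with ratios of 1.44, 1.68 and 0.780. miR-34a-5p stands on both lists, with 31 counts with bait and 3 without and a ratio of 2.66 (0.830 to 13.6).

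In the authors' deposited table, the log2 fold change (with bait over without) stood at 13.02 for miR-193b-3p and 11.97 for miR-365a-3p and miR-365b-3p. In the authors' deposited table a value of 0 RPM had been replaced by 0.01 RPM, so these sizes follow from that constant and are no measured folds. For the 5p members, the authors' deposited table gave -2.97 for miR-193b-5p and -0.63 for miR-193a-5p, and for miR-365b-5p it gave -3.54.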

How the data were processed

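Small RNA libraries from 2 resin pull-downs, 1 with bait (1047269 counts) and 1 without (269716 counts), were analysed. The authors deposited, per library, a count (whole numbers) for every mature miRNA name and a normalized value in RPM, which equalled the count divided by the library total within 0.00994 RPM, per the file headers and values. Another table holds the authors' log2 fold change and a p-value from an unnamed test, per the file headers; that p-value is not reported here. The submitters' processing notes name BWA. The miRNA reference, build and treatment of shared reads are not given in these sources.

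Counts were scaled by library totals. Ratios of bait over no bait have exact conditional binomial 95% intervals, levels exact Poisson and shares exact Clopper-Pearson intervals (SciPy 1.17.1). A library at 0 was set to a floor of 3 counts for the ratio, and the interval used the 0. Alternatives were TMM (edgeR 4.0.16), DESeq2 1.42.0 size factors, totals without the 5 most abundant miRNAs, minimums of 10, 100 and any count, an interval bound beyond 2-fold, 0.5 counts added, the deposited RPM, and names counted separately. Named were all members, their opposite arms, miRNAs within 10 kb, the 3 nearest names of each of the 2 most abundant members, and up to 4 members per list with the highest summed counts; the hairpins, miR-34a-5p, miR-200a-3p and miR-200b-3p named beside them were chosen after their values were seen. The members and lists were chosen with earlier results of these data known.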

Additional observations from a re-analysis of the deposited data

How the results depend on the processing

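No paired analysis was possible because each group held 1 library, and for the same reason no replicate could be left out. Both tested member sequences stayed higher under all 3 scalings, at minimums of 10 counts and of any count, and with the interval bound beyond 2-fold. With 0 counts without bait these calls could hardly change, so this is no sign of stability. At a minimum of 100 counts 0 members were tested and 0 called, since neither reached that count. Counted by name, 3 were called. Without a count filter 13.3% of 715 names were called higher and 14.0% lower, because sparse names enter; the numbers were 95 higher and 100 lower, against 91 and 62 at 30 counts. Taken over 3p arms only, the share of miR-193b among miR-193 counts with bait was 100%, since miR-193a-3p had 0 counts, and no share existed without bait. With 0.5 counts added, the ratios were 45.1 for miR-193b-3p and 21.9 for miR-365-3p, so their size depends on how a count of 0 is treated. By the lower bound of the odds, miR-365b, miR-193b and miR-365a ranked 6, 8 and 9 among hairpins in place of 3, 2 and 1. The depth of the no-bait library limits every member: 1 count there is worth 3.71 RPM, more than the level of miR-193b-5p with bait.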
